A study of Homo sapiens with 24 samples.

Results

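The comparison set MDA-MB-453 cells that received abemaciclib and fulvestrant together (called the combination below) against MDA-MB-453 cells that received fulvestrant alone. It used 6 of the 24 libraries of the series, namely all 3 labelled with each of these treatments, so that the added factor was abemaciclib with fulvestrant present on both sides. MDA-MB-453 is an oestrogen receptor-negative human breast cancer line, abemaciclib is an inhibitor of CDK4 and CDK6, and fulvestrant is an antagonist and degrader of the oestrogen receptor. Doses were 500 nM abemaciclib and 5 nM fulvestrant for 5 days, and the labels give the cells as wild type. The 3 libraries of a group were independent biological replicates of 1 cell line per the study's methods, which state that the experiment was performed once in this line. Other groups served as reference points. These were MDA-MB-453 cells given abemaciclib at 500 nM or its vehicle DMSO, which share no library with the comparison, and MDA-MB-231 cells, a mesenchymal oestrogen receptor-negative line, given fulvestrant alone or the combination at the same doses and time.

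CDK4 and CDK6, bound to D-type cyclins, phosphorylate the retinoblastoma protein RB. Unphosphorylated RB holds E2F transcription factors inactive, and the related pocket proteins p107 and p130 form the DREAM complex, which represses genes of S phase through E2F sites and genes of mitosis through an element called the CHR, often with CCAAT boxes nearby. A CDK4/6 inhibitor therefore keeps cells with functional RB in G1, whereas fulvestrant acts on a receptor that oestrogen receptor-negative cells lack.

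The labelled cell type matched its markers. ESR1, the gene of the target of fulvestrant, had 0 counts in all 6 libraries, which allows up to 0.266 CPM with fulvestrant and 0.291 CPM in the combination when 3 counts per group are taken as the floor, and all 10 luminal and apocrine markers examined were measured, among them FOXA1, SPDEF, EPCAM and KRT19. VIM, CD44, AXL, CAV1 and SPARC, markers of mesenchymal cells, were at 0, as were DCN, LUM and PDGFRB of fibroblasts and PTPRC, CD3E and CD68 of immune cells. TGFBI, COL1A2 and LYZ had 1 or 2 counts in all. COL1A1, another fibroblast marker, was present and fell from 45.9 ± 11.6 to 24.0 ± 5.77 CPM. Levels are given in CPM, the count of a gene relative to the TMM-scaled library total, as mean ± SD of 3 libraries, and changes as log2 fold changes ± SE of the combination against fulvestrant. Library totals lay between 3324814 and 3806769 counts for fulvestrant and between 2873558 and 3916086 for the combination.

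Some libraries did not stand with their group. The library labelled fulvestrant replicate 3 differed from the 3 DMSO libraries by a chi-square per degree of freedom of 2.95, 3.19 and 4.07, close to the 2.78 to 3.07 found among the DMSO libraries themselves. It differed by 7.31 and 8.39 from fulvestrant 1 and 2, which differed from each other by 2.97. Abemaciclib replicate 1 lay 4.91 to 6.14 from the combination libraries but 7.67 and 8.18 from the other abemaciclib libraries. The combination libraries differed from each other by 2.64 to 2.98 and from the fulvestrant libraries by 28.6 to 35.3, so that the treatment difference was larger than this spread in every pair of libraries. Results are given below with all libraries. They are given again without fulvestrant replicate 3, or with it as the lone fulvestrant library, where the call of a named gene was lost or a list count moved by more than 1 gene. Leaving out the other fulvestrant libraries was done together with leaving out abemaciclib 2 and 3, and the lone library was then assumed to vary like the other groups.

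**Figure D1:**
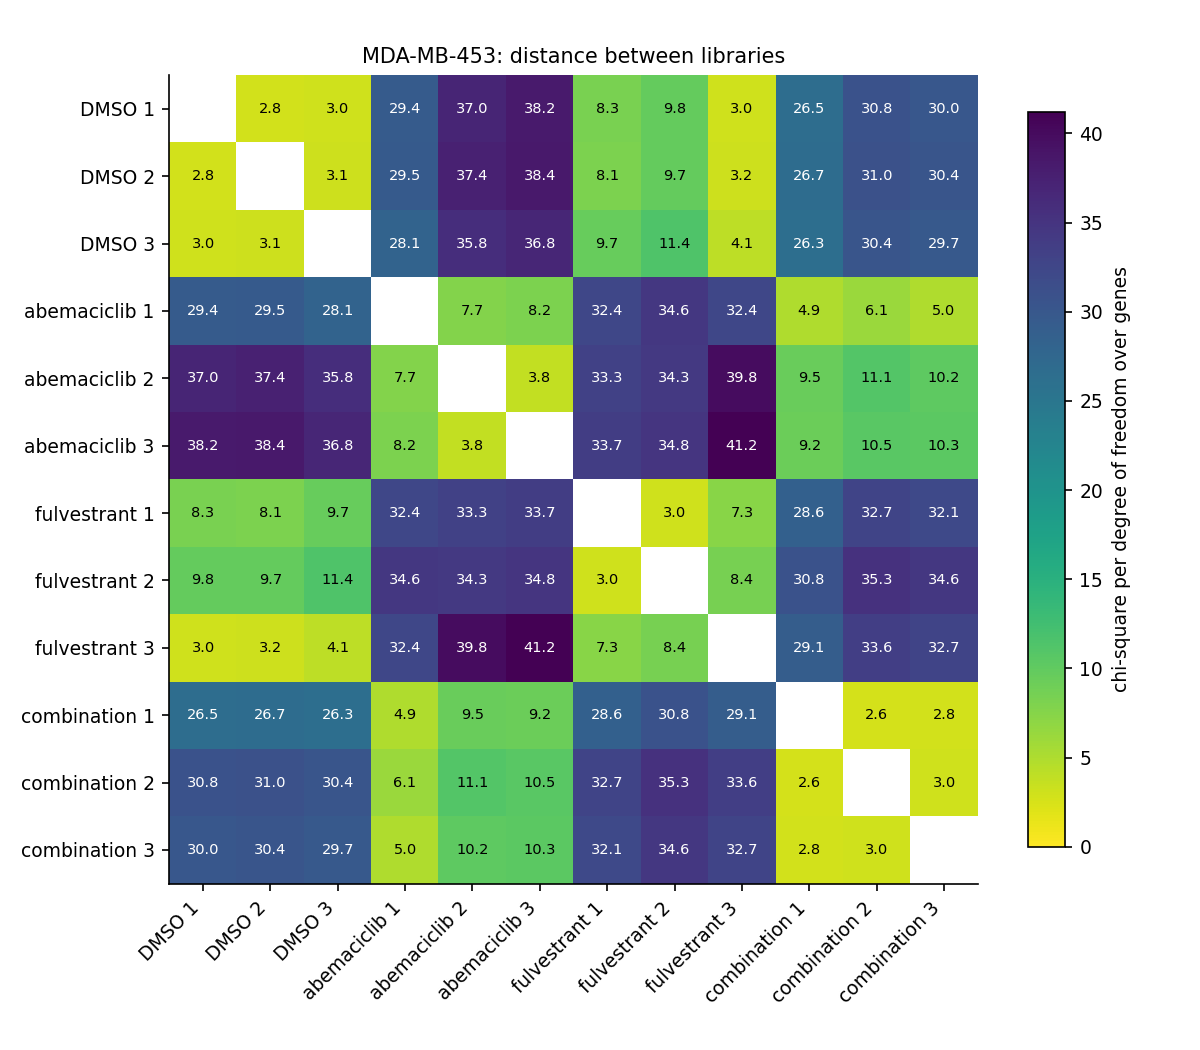
Each cell gives the chi-square per degree of freedom over genes between a pair of the 12 MDA-MB-453 libraries, with lighter cells for smaller distances. Fulvestrant 3 lies within 2.95 to 4.07 of the DMSO libraries, and the combination libraries lie within 2.64 to 2.98 of each other.

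Adding abemaciclib to fulvestrant changed 4052 of 11080 genes tested, which is 36.6% (edgeR quasi-likelihood test, Benjamini-Hochberg adjusted p below 0.05). Of these, 1907 genes (17.2% of those tested) were higher and 2145 (19.4%) were lower. The median size of the change was similar in both directions, at 0.78 for higher and 0.77 for lower genes on the log2 scale, but the tails were not. At least 16-fold lower were 112 genes, against 9 at least 16-fold higher, and at 4-fold the counts were 344 and 139. The values of the 2 groups did not overlap for 1787 of the higher and 2000 of the lower genes, and for 5128 of all genes tested (46.3%), 22.9% with the combination higher and 23.4% with it lower. In bulk RNA, fewer cells that make a transcript and less of it per cell cannot be told apart.

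Genes of DNA replication fell almost without exception. Of 53 genes of replication origins and forks, 47 were lower and 0 higher (45 lower with fulvestrant 3 as the lone fulvestrant library), with a list median of -1.99 beside 0.01 for all genes tested. MCM2, a subunit of the replicative helicase, had 229, 224 and 251 CPM in the fulvestrant libraries and 15.7, 21.3 and 18.0 in the combination libraries. The groups were far apart, and the change of -3.67 ± 0.13 corresponded to a 12.8-fold lower mean. PCNA, the sliding clamp of DNA polymerase, went from 146 ± 5.91 to 22.2 ± 1.54 CPM. CDC6, which loads the helicase, fell by 2.30, and CLSPN, an adaptor of the replication checkpoint, fell by 6.76. The initiation factors MCM10 and CDC45 fell furthest. MCM10 had 746 counts over the fulvestrant libraries and 1 count over the combination libraries (ratio 680, 95% counting interval 122 to 26900). CDC45 went from 379 counts to 0, which at the floor of 3 counts per group was at least 115-fold lower.

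Enzymes that supply deoxynucleotides and repair DNA fell with them. Of 12 deoxynucleotide genes, 8 were lower and 1 higher (median -1.63). RRM2, the regulated subunit of ribonucleotide reductase, had 192, 173 and 194 CPM with fulvestrant and 1.04, 0.865 and 1.01 CPM in the combination, a change of -7.53 ± 0.22. TK1, thymidine kinase, went from 122 ± 8.56 to 6.17 ± 1.90 CPM. TYMS, thymidylate synthase, went from 389 to 3 counts (ratio 118, interval 40.2 to 576), at a locus whose exons overlap ENOSF1 and TYMSOS on the other strand. DUT, which degrades dUTP, fell by 2.40 and RRM1, the partner of RRM2, by 1.85. The exception was RRM2B, the p53-induced form of the small subunit, which rose from 17.2 to 31.9 CPM (0.89 ± 0.22). Of 32 repair and checkpoint genes, 25 were lower and 0 higher (median -2.23), and 21 were lower with fulvestrant 3 as the lone fulvestrant library. FANCI of the Fanconi pathway fell by 2.93, RMI2 by 4.18 and the histone H2AX by 2.56. EXO1, a 5′ exonuclease, went from 266 counts to 0, at least 80.8-fold lower.

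Mitotic genes showed the deepest loss among the lists. All 43 tested genes of mitotic kinases, cyclins and the spindle were lower (median -4.25), as were all 12 mitotic kinesins (median -4.09) and 30 of 33 centromere and kinetochore genes (median -3.01). MKI67, the proliferation antigen that coats mitotic chromosomes, had 409, 463 and 289 CPM with fulvestrant and 0.695, 2.88 and 1.27 CPM in the combination. The lowest fulvestrant library, replicate 3, was still far above every combination library, and the change was -7.84 ± 0.22. TOP2A, the topoisomerase that untangles sister chromatids, went from 413 ± 51.7 to 2.76 ± 0.73 CPM (-7.23 ± 0.17). PLK1, a kinase of mitotic entry, had 142, 154 and 157 CPM and then 0.695, 2.60 and 2.03 CPM (-6.33 ± 0.22). CCNA2 fell by 6.09 and CCNB1, cyclin B1, by 2.41, so that 15.3 ± 2.10 CPM of CCNB1 remained of 81.3 ± 10.7.

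Several mitotic genes were reduced to a handful of counts. BIRC5, the survivin subunit of the chromosomal passenger complex, went from 1016 to 2 counts (ratio 463, interval 128 to 3830). AURKB, the kinase of the same complex, went from 479 to 1 count (ratio 437, interval 78.0 to 17300). HJURP, the chaperone that loads the centromeric histone, went from 388 to 1 count (ratio 354, interval 63.1 to 14000). KIF20A, a kinesin of cytokinesis, went from 326 to 0 counts, at least 99.1-fold lower, and DIAPH3, a formin that builds actin filaments, from 233 to 0, at least 70.8-fold lower. PTTG1, securin, went from 112 ± 10.9 to 0.489 ± 0.33 CPM. CENPF kept 8.43 ± 1.62 of 461 ± 84.6 CPM (-5.79 ± 0.16), and CENPM, CENPU and ZWINT fell by 4.58, 4.04 and 2.62. The kinesins KIF4A, KIF2C, KIFC1 and KIF20B fell by 6.00, 5.72, 4.50 and 3.04. Exons of KIF20A overlap BRD8 and CDC23, and those of HJURP overlap MROH2A, on the other strand. With the strand of counting not stated, the counts of these 2 genes could not be assigned with certainty.

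Promoter sequences are shown for 3 of these genes and for PIP, a raised secretory gene described below, to set lowered and raised genes side by side. The 3 were picked after the matches had been seen, as those with a CHR or E2F match among the 9 matched promoters of the 10 largest falls. The other 6 of these 9 (CDC45, KIF20A, DIAPH3, MCM10, AURKB and PTTG1) held CCAAT matches alone. The sequences are RefSeq promoters on GRCh38.p14, 250 bases before to 50 after the start, 5′ to 3′ on the strand of the gene, with capitals for the motif letters found on either strand: TTTGAA for the CHR, CCAAT for the CCAAT box, and TTTCCCGC, TTTCGCGC, TTTGCCGC or TTTGGCGC for E2F.
MKI67 promoter, chr10:128126374-128126673, minus strand: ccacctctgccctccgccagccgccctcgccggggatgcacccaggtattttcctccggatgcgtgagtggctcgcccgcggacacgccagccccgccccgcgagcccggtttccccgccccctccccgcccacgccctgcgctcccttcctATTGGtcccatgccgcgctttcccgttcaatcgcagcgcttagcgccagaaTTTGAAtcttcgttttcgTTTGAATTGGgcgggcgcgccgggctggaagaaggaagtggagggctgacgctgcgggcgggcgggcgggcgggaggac
HJURP promoter, chr2:233854486-233854785, minus strand: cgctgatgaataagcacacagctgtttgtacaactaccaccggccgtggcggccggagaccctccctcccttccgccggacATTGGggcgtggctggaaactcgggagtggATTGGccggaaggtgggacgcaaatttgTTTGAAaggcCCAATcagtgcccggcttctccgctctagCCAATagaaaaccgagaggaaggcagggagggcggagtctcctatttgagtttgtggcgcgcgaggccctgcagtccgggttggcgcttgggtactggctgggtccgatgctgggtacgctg
EXO1 promoter, chr1:241847954-241848253, plus strand: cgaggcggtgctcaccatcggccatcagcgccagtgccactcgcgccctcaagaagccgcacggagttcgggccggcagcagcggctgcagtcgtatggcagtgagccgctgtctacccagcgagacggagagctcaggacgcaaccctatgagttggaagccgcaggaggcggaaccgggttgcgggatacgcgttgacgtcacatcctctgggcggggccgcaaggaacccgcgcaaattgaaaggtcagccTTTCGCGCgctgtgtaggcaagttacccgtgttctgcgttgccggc
PIP promoter, chr7:143131827-143132126, plus strand: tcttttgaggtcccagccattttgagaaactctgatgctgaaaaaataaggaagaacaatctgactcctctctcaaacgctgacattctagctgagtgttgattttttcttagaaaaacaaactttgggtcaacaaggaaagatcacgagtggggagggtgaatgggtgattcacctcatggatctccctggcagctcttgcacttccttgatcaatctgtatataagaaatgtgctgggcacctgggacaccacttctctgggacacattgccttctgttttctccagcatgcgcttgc
The MKI67 window held 2 CHR matches and 2 CCAAT matches, the nearer of which shares bases with a CHR match. HJURP held 1 CHR and 4 CCAAT matches, EXO1 1 E2F match just after the start, and PIP none of the 3 motifs. Of the 6 matched promoters among the 10 largest rises none held a CHR or E2F match, and those of CYP4F8 and INPP4B held CCAAT matches. RefSeq promoters were matched for 8506 of the 11080 genes tested, and 9.2% of them held a CHR, 38.2% a CCAAT box and 5.8% an E2F match, against 15.4%, 35.7% and 3.3% of all 27305 promoters in the table. Among the 89 matched promoters of genes at least 16-fold lower, 42.7% held a CHR, 66.3% a CCAAT box and 33.7% both. Among the 1461 of genes called higher, the shares were 7.8%, 37.0% and 3.4%, and among the 5355 not called 8.1%, 36.9% and 3.1%. The replication and mitosis lists differed in kind. An E2F match stood in 42.2% of 45 origin and fork promoters and a CHR in 2.2%, whereas among 35 promoters of the mitotic kinase list an E2F match stood in 5.7% and a CHR in 57.1%. These are matches of the listed letters alone, so that a promoter without a match can still hold another form of the motif. They were not tested.

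The factors that control this programme changed unequally. Their list counts stand beside 17.2% higher and 19.4% lower of all genes tested. RB1 itself had 50.4, 49.0 and 62.8 CPM with fulvestrant and 45.6, 46.4 and 36.5 CPM in the combination, and was not called (-0.34 ± 0.15, edgeR adjusted p = 0.0771). With fulvestrant 3 as the lone fulvestrant library it was called at -0.56. E2F1, an activator E2F, went from 112 ± 11.7 to 13.2 ± 0.96 CPM (-3.09 ± 0.16), E2F2 fell by 6.31 and the dimer partner TFDP1 by 1.10. Of 10 E2F and DP genes, 6 were lower and 0 higher (median -1.11). MYBL2, which partners the DREAM core at mitotic promoters, had 324, 332 and 379 CPM and then 1.04, 3.17 and 2.03 CPM (-7.31 ± 0.18). FOXM1, a mitotic activator, fell by 4.54. Of 10 pocket protein and DREAM genes, 7 were lower and 1 higher, or 5 and 0 with fulvestrant 3 as the lone fulvestrant library. RBL1, which encodes p107, fell by 3.59, while RBL2, which encodes p130, was the higher member at 0.55 ± 0.21. The RBL2 call was lost without fulvestrant 2 or 3 or combination 2 or 3, with values of 0.46 to 0.65 when 1 library was left out, and with fulvestrant 3 alone (0.71).

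The G1 regulators moved in both directions, beside 17.2% higher and 19.4% lower of all genes tested. CCND1, cyclin D1, had 508, 528 and 526 CPM with fulvestrant and 669, 698 and 703 CPM in the combination. The ranges did not overlap, and the rise was 1.33-fold (0.41 ± 0.08, edgeR adjusted p = 3.11e-05). CDK4 was not called (171 ± 18.6 and 153 ± 2.46 CPM), and neither was CDK6, which had under 11 CPM in each library. CDK2, the kinase of S phase entry, fell by 1.62, CCNE2 by 5.37, CDC25A by 2.48 and CCND3 by 0.76. CCNE1 went from 39 to 8 counts (-2.09 ± 0.69), and its call was lost without combination 2 (-1.91) or 3 (-1.83). CDK7 was the other higher member of 11 (0.60 ± 0.24), and its call was lost without fulvestrant 1 or 3 or combination 1 or 2, at 0.49 or more, and with fulvestrant 3 alone (0.82). Of 6 CDK inhibitor genes, 3 were lower and 0 higher. CDKN2C fell by 3.97, CDKN2D by 1.38 and CDKN2A by 1.34, whereas CDKN1A, which encodes p21, was at 10.2 ± 1.60 and 15.5 ± 2.30 CPM and was not called (0.60 ± 0.30, edgeR adjusted p = 0.109). CDKN1B, which encodes p27, was not called either (55.4 ± 5.83 and 63.4 ± 15.2 CPM).

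**Figure D2:**
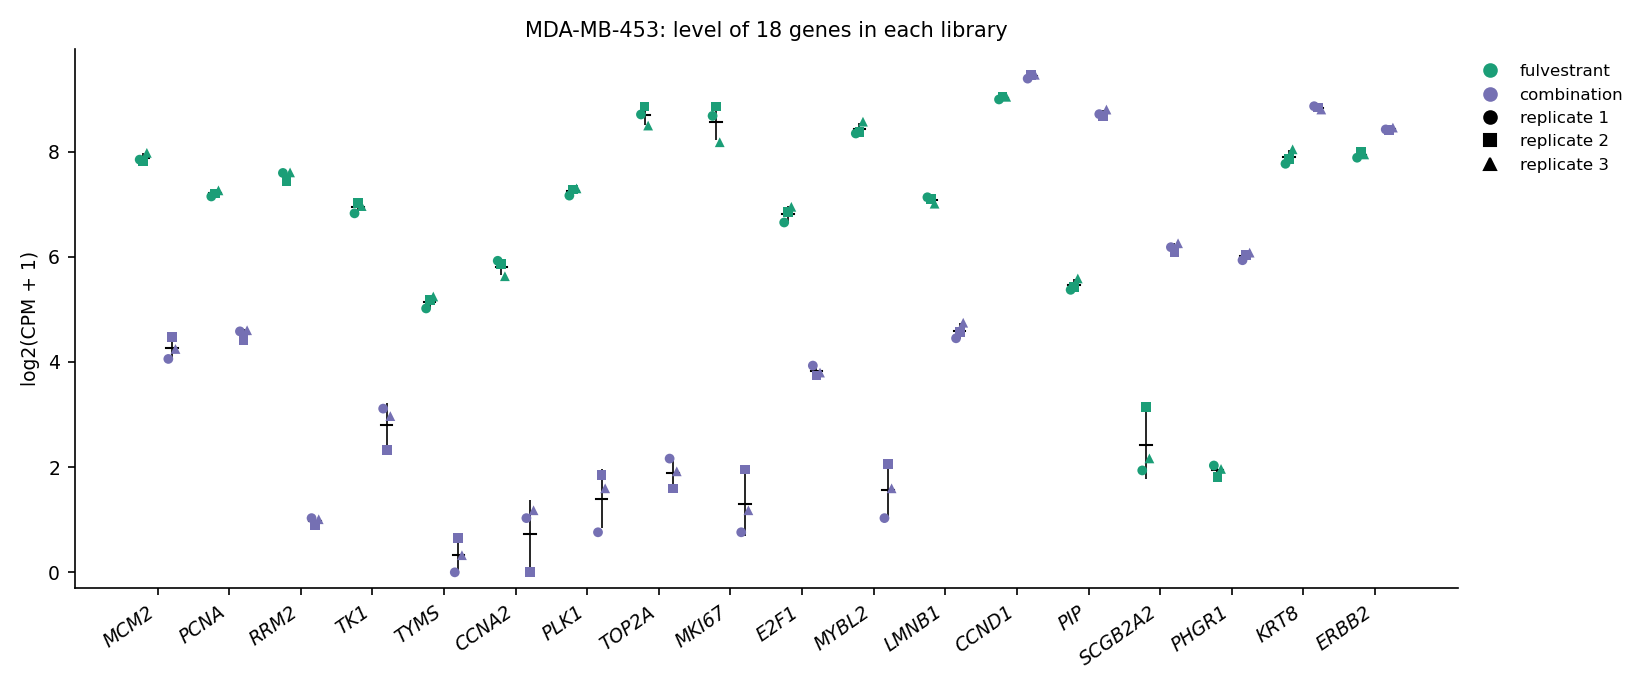
Level of 18 genes in each of the 6 libraries, as log2 of CPM plus 1, with colour for treatment, shape for replicate number, a horizontal bar for the mean and a vertical bar for the SD of 3 libraries. The replication and mitotic genes from MCM2 to MYBL2 and LMNB1 are lower in every combination library, and CCND1, PIP, SCGB2A2, PHGR1, KRT8 and ERBB2 are higher in every one.

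Chromatin and nuclear structure genes fell to a smaller extent, with 17 of 22 lower and 1 higher (median -1.30). LMNB1, lamin B1, went from 134 ± 5.93 to 23.2 ± 2.50 CPM (-2.53 ± 0.14). UHRF1, which maintains DNA methylation, went from 23.5 to 1.14 CPM. HMGB2 fell by 4.97, the remodeller HELLS by 4.22 and the histone variant H2AZ1 by 1.32. KDM5B, a demethylase of histone H3 lysine, was the exception and rose from 43.9 to 111 CPM (1.34 ± 0.13). Its relative KDM5A was not called (-0.20 ± 0.14), although it was called lower without fulvestrant 3 (-0.36). Condensin and cohesin genes were lower in 13 of 17 (median -1.51), and in 11 with fulvestrant 3 as the lone fulvestrant library. The condensin genes SMC4, SMC2 and NCAPD2 fell by 1.83, 2.09 and 2.60. The cohesin genes RAD21, SMC1A and SMC3 fell by 1.51, 1.54 and 1.22. SMC1A had 226, 288 and 157 CPM in the fulvestrant libraries and 85.5, 74.1 and 72.4 CPM in the combination libraries, against 138 to 149 CPM with DMSO, so that fulvestrant 3 was the lowest of its group and nearest to DMSO.

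Secretory genes of apocrine cells had the highest median of the lists. Of 24 genes of this list 13 passed the filter on low counts, and 9 of those were higher and 2 lower (median 1.30). The filter could keep a gene that was high only with abemaciclib, so that the share of higher genes is a description. The list counts in this paragraph stand beside 17.2% higher and 19.4% lower of all genes tested. PIP, prolactin-induced protein, a classical apocrine secretion, had 40.4, 41.9 and 47.1 CPM with fulvestrant and 418, 409 and 444 CPM in the combination. The 9.83-fold rise (3.30 ± 0.11) was far larger than the spread among libraries. SCGB2A2, mammaglobin A, had 2.83, 7.82 and 3.49 CPM and then 71.6, 67.5 and 75.5 CPM (3.90 ± 0.24). PHGR1 had 3.09, 2.52 and 2.91 CPM and then 60.2, 64.6 and 66.6 CPM, a 22.5-fold rise (4.48 ± 0.23). The glucuronosyltransferase genes UGT2B28 and UGT2B11 rose by 2.28 and 1.66, but they are close in sequence to other UGT2B genes and reads could have been split among them. AGR2, a disulphide isomerase of secretory cells, fell by 0.57 and CLCA2 by 0.40. Of 15 androgen response genes, 8 were higher and 2 lower (median 0.52), and 4 were higher with fulvestrant 3 as the lone fulvestrant library. TSC22D3 rose from 169 to 525 CPM (1.63 ± 0.09), ACSL3 by 0.66 and PMEPA1 by 0.52, while TRPS1 and NDRG1 fell by 0.79 and 0.51.

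Receptors, luminal factors and keratins changed little in comparison. Their list counts stand beside 17.2% higher and 19.4% lower of all genes tested. ERBB2, which encodes HER2, had 235, 254 and 246 CPM and then 342, 338 and 350 CPM, a 1.40-fold rise (0.49 ± 0.09). ERBB3 rose by 0.59. FOXA1 was not called (182 ± 18.1 and 198 ± 4.58 CPM). Of 13 genes of receptors and luminal transcription factors, 4 were higher and 4 lower (4 and 2 with fulvestrant 3 as the lone fulvestrant library), with ESRRA, ELF3 and TFAP2A higher by 0.98, 0.67 and 0.32 and TFAP2B lower by 0.39. The TFAP2B call was lost with fulvestrant 3 as the lone fulvestrant library (-0.15). KRT8 rose 1.92-fold, from 237 ± 23.5 to 455 ± 9.97 CPM, and KRT7 by 0.38, while KRT19 was not called (1733 ± 55.8 and 1829 ± 76.1 CPM). KRT18 was called (0.25 ± 0.08) but lost its call without fulvestrant 1 (0.17) or 2 (0.22) or combination 1 (0.22), and with fulvestrant 3 as the lone fulvestrant library it was 0.054. Of 8 keratins 5 were higher, or 2 with fulvestrant 3 as the lone fulvestrant library. The lower one, KRT16, was near 3 CPM and lost its call without fulvestrant 1 or 2 or combination 2 or 3, with values of -3.42 to -1.73 when 1 library was left out, and with fulvestrant 3 alone (-1.70). Classical oestrogen targets were split, with 7 of 26 higher and 7 lower, or 4 and 6 with fulvestrant 3 as the lone fulvestrant library. TFF3, a trefoil peptide, rose from 39.9 to 209 CPM (2.39 ± 0.13) and SLC39A6 by 0.50, while SLC7A5 fell by 1.80.

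**Figure D3:**
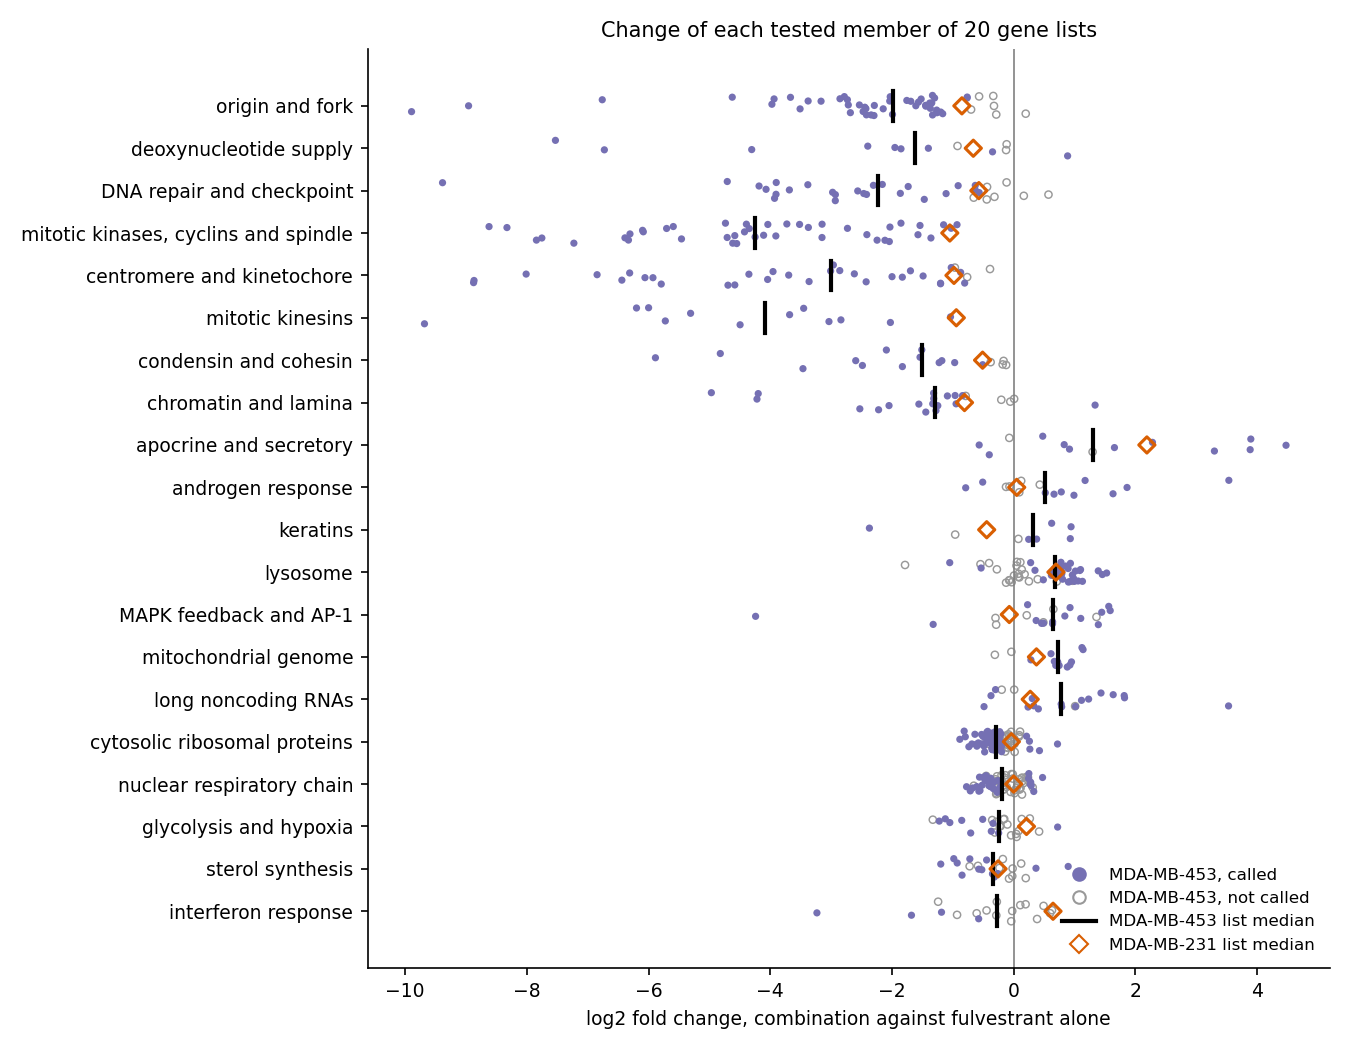
Log2 fold change of the combination against fulvestrant for each tested member of 20 gene lists, with filled points for genes called and open points for genes not called in MDA-MB-453, black bars for the MDA-MB-453 list median and diamonds for the MDA-MB-231 list median. The mitotic kinase list has a median of -4.25 in MDA-MB-453 and -1.05 in MDA-MB-231.

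Lysosomal genes rose together, with 30 of 54 higher and 2 lower (median 0.67), against 17.2% of all genes higher. With fulvestrant 3 as the lone fulvestrant library 27 were higher. CD63, a membrane protein of lysosomes, went from 1259 to 2755 CPM (1.13 ± 0.07). PSAP, the precursor of sphingolipid activators, rose by 1.00, the proton pump subunit ATP6AP1 by 0.98 and the cholesterol carrier NPC2 by 1.01. CTSD, cathepsin D, had 328, 354 and 381 CPM and then 626, 590 and 622 CPM (0.79 ± 0.08). LIPA, the lysosomal acid lipase, fell by 1.05 with a call that was lost without fulvestrant 3 (-0.76) or combination 2 (-0.76). Of 31 autophagy genes 8 were higher, among them SQSTM1 (0.89 ± 0.08), MAP1LC3B (0.89 ± 0.19) and BECN1 (0.82 ± 0.16). Only 2 were higher with fulvestrant 3 as the lone fulvestrant library, and BECN1 was then not called (0.50).

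Genes of sterol synthesis and glycolysis were more often lower than higher, beside 19.4% lower and 17.2% higher of all genes tested. Of 23 sterol synthesis genes, 12 were lower and 2 higher (median -0.34). FDPS, which makes farnesyl diphosphate, fell by 1.20, EBP by 0.93, ACAT2 by 0.85 and TM7SF2 by 0.72. HMGCS1 fell by 0.35 ± 0.09. SQLE was called (-0.26 ± 0.10) but lost its call without fulvestrant 1 (-0.18) or 2 (-0.27) or combination 1 (-0.23) or 2 (-0.26), and with fulvestrant 3 as the lone fulvestrant library it was -0.075. SC5D, a desaturase of the last steps of the pathway, rose by 0.90. Of 10 fatty acid genes, 4 were higher and 2 lower, with SREBF1 and ACACA higher by 0.71 and 0.61 and ELOVL6 and ACLY lower by 2.34 and 0.51. Of 26 glycolysis and hypoxia genes, 9 were lower and 1 higher (median -0.24), or 11 and 2 with fulvestrant 3 as the lone fulvestrant library. LDHA, lactate dehydrogenase, went from 692 to 317 CPM (-1.12 ± 0.09), and TPI1, GAPDH and ENO1 fell by 1.05, 0.85 and 0.71, while VEGFA rose by 0.72.

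Transcripts of the mitochondrial genome took up more of each library. Their share of all counts was 14.9%, 14.8% and 13.3% with fulvestrant and 21.2%, 21.6% and 20.8% in the combination, a difference of 6.87 percentage points. The groups did not overlap, and the exact 2-sided permutation test gave p = 0.1, the smallest that 3 against 3 libraries allow. Of 13 mitochondrial messenger RNAs, 11 were higher (median 0.72). MT-ND2 went from 3239 to 7051 CPM (1.12 ± 0.07), and MT-CO1 from 2271 ± 63.7 to 3751 ± 84.9 CPM (0.72 ± 0.07). Of all genes tested, 19.4% were lower and 17.2% higher. Nuclear genes of the respiratory chain were more often lower than higher, with 27 of 73 lower and 7 higher (median -0.20). The counts were 22 and 10 without fulvestrant 3, and 36 and 2 with it as the lone fulvestrant library. NDUFB9, NDUFC1, NDUFB10 and NDUFS6 of complex I fell by 0.77, 0.71, 0.67 and 0.61, while SDHC of complex II rose by 0.47 and NDUFA4 by 0.33, the latter not called with fulvestrant 3 alone (0.21). Leaving the mitochondrial genes out of the scaling gave 4043 called genes in place of 4052. Whether the mitochondrial share moved with RNA quality was not tested.

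Genes of cytosolic ribosomal proteins fell by small amounts, with 48 of 77 lower and 5 higher (median -0.28). The list counts in this paragraph stand beside 19.4% lower and 17.2% higher of all genes tested. The share of ribosomal proteins in all counts went from 10.2% ± 0.77 to 8.15% ± 0.13. Fulvestrant 3, at 11.1%, had the highest share of its group and lay within the 11.0% to 11.5% of the DMSO libraries. Without it 40 were lower and 6 higher, and with it as the lone fulvestrant library 61 and 2. RPS29 went from 4721 to 2556 CPM (-0.88 ± 0.07), and RPS19, RPS2 and RPS3 fell by 0.79, 0.74 and 0.64. RPL22 and RPL3 rose by 0.72 and 0.42. The smaller rises of RPL10A (0.27), RPL26 (0.26) and RPL31 (0.21) were not called with fulvestrant 3 as the lone fulvestrant library (0.15, 0.13 and 0.00), and those of RPL26 and RPL31 were also lost when single other libraries were left out, at 0.13 or more. Of 33 ribosome biogenesis genes, 13 were lower and 1 higher, or 15 and 1 with fulvestrant 3 alone. FBL, the methyltransferase of ribosomal RNA, fell by 1.38, TCOF1 by 1.47, nucleolin NCL by 1.03 and DKC1 by 0.80, and POLR1D rose by 0.37, not called with fulvestrant 3 alone (0.24).

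Stress and signalling genes gave mixed counts, which stand beside 17.2% higher and 19.4% lower of all genes tested. Of 21 genes of MAPK feedback and AP-1, 13 were higher and 2 lower (median 0.64), and 10 were higher without fulvestrant 3. JUN went from 110 to 289 CPM (1.39 ± 0.10) and the ERK phosphatase DUSP6 from 60.9 to 183 CPM (1.59 ± 0.11). JUNB and DUSP5 rose by 0.93 and 0.84, DUSP4 fell by 1.32, and ETV5 went from 28 counts to 1. Of 24 p53 target genes, 7 were higher and 4 lower. TP53INP1, BTG2, SESN2 and PLK2 rose by 2.51, 2.10, 0.99 and 0.66, and RPS27L, AEN and FDXR fell by 0.76, 1.13 and 0.71. MDM2 fell by 0.48, with its call lost without fulvestrant 2 (-0.41) or combination 1 (-0.45) or 2 (-0.46) and with fulvestrant 3 alone (-0.34). Of 22 ATF4 response genes, 4 were higher and 7 lower. DDIT4, an inhibitor of mTOR complex 1, rose from 105 to 373 CPM (1.83 ± 0.10), DDIT3 by 2.26 and ATF4 itself by 0.40, while PHGDH, the first enzyme of serine synthesis, fell by 2.65 and MTHFD2 by 0.72.

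Of 46 interferon genes only 18 passed the filter on low counts, and 4 of those were lower and 0 higher (median -0.28), beside 19.4% lower and 17.2% higher of all genes. OAS3 went from 26.6 to 2.74 CPM (-3.23 ± 0.33), ISG20 fell by 1.68 and IFITM2 by 0.57. Of 12 genes of MHC class I presentation 2 were lower, among them HLA-C by 0.41, and TAPBP was higher (0.42), with its call lost without fulvestrant 1 (0.30) and with fulvestrant 3 alone (0.10). Of 28 cytokine and chemokine genes, 17 had 0 counts in the 6 libraries and only 5 passed the filter on low counts. Of those 5, 3 were higher, or 2 without fulvestrant 1 or combination 3. Among them was GDF15, which went from 44.2 to 118 CPM (1.42 ± 0.14). Of 28 genes of ciliary transport, 4 were higher and 3 lower, or 2 and 2 with fulvestrant 3 alone. IFT20 and IFT46 rose by 1.21 and 0.97, WDR34 and HSPB11 fell by 1.82 and 0.93, and IFT122 fell by 0.73 with a call that was lost without fulvestrant 1 or 3 or combination 1 or 2, at -0.69 to -0.66, and with fulvestrant 3 alone (-0.86).

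Long noncoding RNAs were among the genes that rose most. Their list counts stand beside 17.2% higher and 19.4% lower of all genes tested. Of 20 tested, 14 were higher and 3 lower (median 0.78), or 12 and 2 with fulvestrant 3 as the lone fulvestrant library. NEAT1, the scaffold RNA of paraspeckles, had 50.4, 38.6 and 27.9 CPM with fulvestrant and 334, 614 and 412 CPM in the combination. All combination libraries lay far above all fulvestrant libraries, and the change was 3.53 ± 0.16. MALAT1, a nuclear RNA of speckles, had 2980, 2618 and 1522 CPM and then 7812, 9728 and 7549 CPM (1.82 ± 0.14). NEAT1 and MALAT1 together made up 0.251% ± 0.081 of the fulvestrant counts and 0.886% ± 0.13 of the combination counts. SNHG7, a host gene of small nucleolar RNAs, rose by 1.23, while SNHG6 and DANCR fell by 0.49 and 0.37. OIP5-AS1 fell by 0.30, with its call lost without combination 1 or 3 (-0.29 and -0.30) or with fulvestrant 3 alone.

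The rule for the largest rises named 10 genes, of which PHGR1, SCGB2A2, NEAT1 and PIP are given above. PNPLA7, a lysophospholipase, had 4.63, 3.78 and 3.49 CPM and then 35.1, 51.6 and 41.3 CPM (3.41 ± 0.27). CYP4F8, a cytochrome P450 of fatty acid hydroxylation, had 31.6, 29.5 and 27.9 CPM and then 242, 374 and 271 CPM (3.32 ± 0.14). GPRC5B, an orphan receptor, and ZC3H12A, an endonuclease of inflammatory transcripts, rose by 2.97 and 2.84, and INPP4B, a phosphoinositide phosphatase, by 2.64. AL591895.1, an RNA with no assigned function, rose by 2.59.

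The effect of abemaciclib in the presence of fulvestrant was set beside its effect in the absence of fulvestrant, in the abemaciclib and DMSO libraries of the same line. Without fulvestrant 3987 genes were called (36.0%), 1843 higher (16.6%) and 2144 lower (19.4%). Of the 1907 genes higher with fulvestrant, 1104 were also higher without it, which is 57.9% of the former and 59.9% of the latter, 798 were not called and 5 were called in the opposite direction. Of the 2145 lower genes, 1478 were lower in both, 68.9% of either list, 636 were not called and 31 were opposite. Over 11080 genes the 2 sets of log2 changes had a Pearson correlation of 0.81 and a Spearman correlation of 0.683, as a description, since genes are not independent replicates and both changes come from 1 fit and 1 cell line. The mitotic kinase list had a median of -4.25 with and -4.60 without fulvestrant, origin and fork genes -1.99 and -1.83, apocrine genes 1.30 and 1.69, and lysosomal genes 0.67 and 0.58. Other lists lay further apart. Long noncoding RNAs had a median of 0.78 with and 0.23 without fulvestrant, and the difference described next was called higher for 5 of 20 and lower for 1. Condensin and cohesin genes had -1.51 and -0.87, with 5 of 17 differences called lower. ERBB receptors and ligands had 0.49 and 0.91, with 1 of 5 called lower. Over all genes tested, this difference was called higher for 1.13% and lower for 2.67%. The condensin, cohesin and ERBB calls were lost with fulvestrant 3 and abemaciclib 1 as the lone libraries of their groups. PIP reached 424 ± 18.3 CPM in the combination and 424 ± 40.4 CPM with abemaciclib alone.

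**Figure D4:**
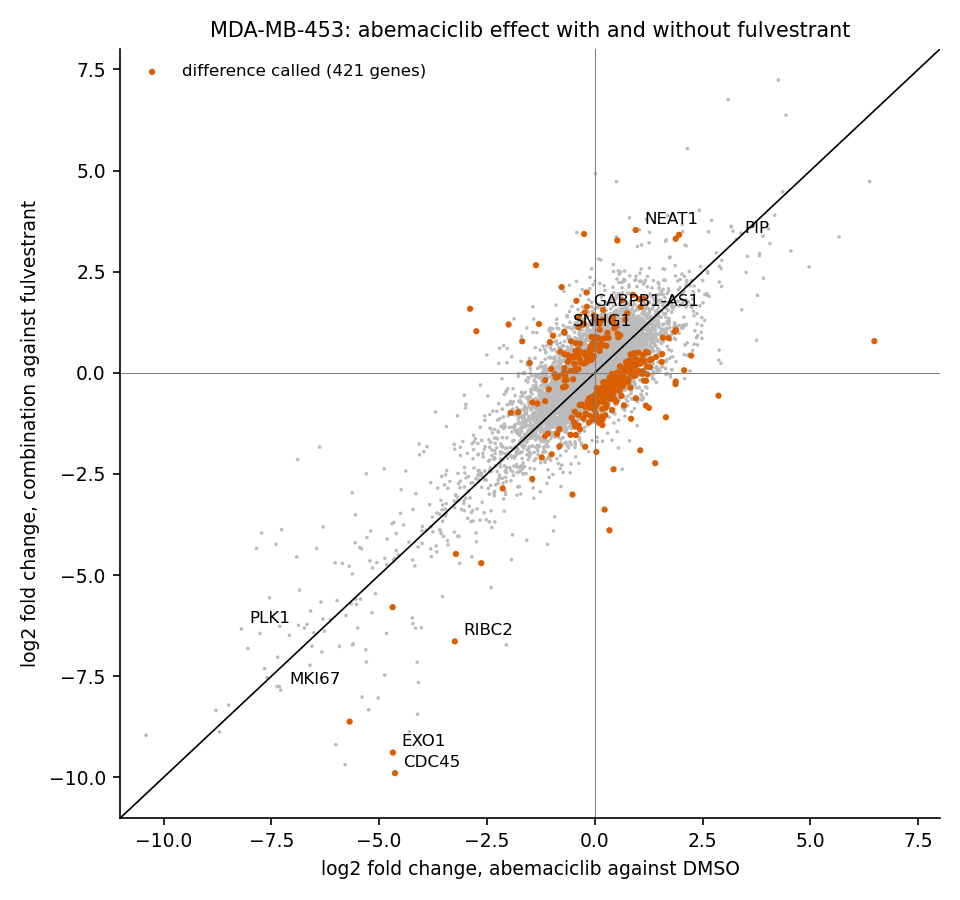
Log2 fold change of each of 11080 genes, with abemaciclib against DMSO on the horizontal axis and the combination against fulvestrant on the vertical axis, a diagonal line for equal changes, and orange points for the 421 genes whose difference was called. NEAT1 and GABPB1-AS1 lie above the diagonal, and CDC45 and EXO1 below it.

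The difference between the 2 effects was itself tested. It was called for 421 genes (3.8%), with 125 higher (1.13%) and 296 lower (2.67%) when fulvestrant was present, but this number depended on the libraries that stood apart. It was 873 without fulvestrant 3, 741 without abemaciclib 1 and 1331 without both, and 22 with fulvestrant 1 and 2 and abemaciclib 2 and 3 left out, 13 of them among the 421. When any other single library was left out, it was 191 to 298. For MKI67 the difference was -0.56 ± 0.56, for MCM2 -0.14 ± 0.19, for TK1 -0.21 ± 0.30, for LMNB1 -0.32 ± 0.19, for CCND1 -0.12 ± 0.11, for RB1 0.19 ± 0.22, for PIP 0.02 ± 0.15 and for SCGB2A2 -0.27 ± 0.39, and none of these was called. PLK1, at 1.86 ± 0.63, was not called either (edgeR adjusted p = 0.089) and rested on 5 counts with abemaciclib and 19 in the combination, but it was called at 2.48 without fulvestrant 3 and abemaciclib 1.

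NEAT1 gave the largest positive difference by the rule. It had 32.9, 35.5 and 30.6 CPM with DMSO, 74.3, 52.0 and 64.3 CPM with abemaciclib, and the fulvestrant and combination values given above. The combination thus stood apart from the other 3 treatments, and the difference was 2.58 ± 0.24 (edgeR adjusted p = 6.45e-10). It was 2.85 ± 0.28 with fulvestrant 1 and 2 and abemaciclib 2 and 3 left out. GABPB1-AS1 had 35.8, 17.3 and 15.6 CPM with DMSO and 17.3, 13.5 and 28.1 CPM with abemaciclib, but 29.3, 28.3 and 26.4 CPM with fulvestrant and 82.4, 78.4 and 77.0 CPM in the combination. Its difference was 1.73 ± 0.31, and 1.98 ± 0.38 with the same libraries left out. Its exons overlap GABPB1 on the other strand, so that reads of the 2 genes could not be told apart. SNHG1 had 17.0, 11.9 and 14.4 CPM, then 8.25, 13.5 and 4.57, 11.6, 16.9 and 14.5, and 23.0, 39.2 and 24.8 CPM in the same order of treatments, a difference of 1.72 ± 0.40. Its call was lost with fulvestrant 3 and abemaciclib 1 as the lone libraries of their groups and without combination 2 (1.44). CYP4F8, chosen here after its values were seen, with 114 ± 6.50 CPM for abemaciclib and 296 ± 69.3 for the combination, had a difference of 1.44 ± 0.21, which was 1.45 ± 0.26 in the same subset.

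**Figure D5:**
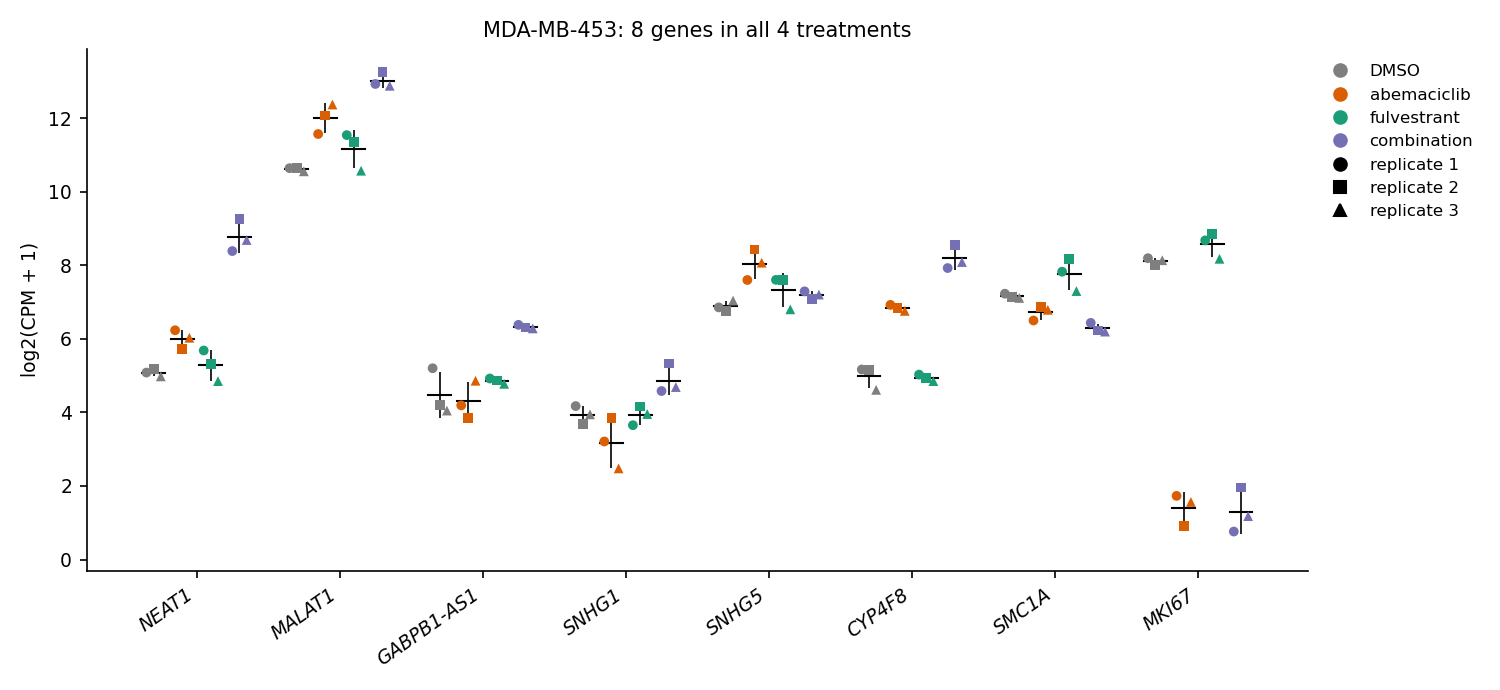
Level of 8 genes in each of the 12 MDA-MB-453 libraries, as log2 of CPM plus 1, with colour for treatment, shape for replicate number, horizontal bars for the mean and vertical bars for the SD of 3 libraries. NEAT1 is at 334 to 614 CPM in the combination and at 27.9 to 74.3 CPM in the other 9 libraries, whereas MKI67 is similarly low in both groups given abemaciclib.

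The largest negative differences by the rule rested on very few counts. CDC45 had 318 counts with DMSO and 12 with abemaciclib, against 379 and 0 with fulvestrant and the combination, EXO1 had 221 and 8 against 266 and 0, and RIBC2 had 141 and 14 against 257 and 2. The fitted differences depend on the 0 counts and are no measure of size, and the 3 calls were lost with fulvestrant 3 and abemaciclib 1 as the lone libraries of their groups. ERBB2 had a difference of -0.42 ± 0.12 (edgeR adjusted p = 0.0431). Its levels were 237 ± 13.8 CPM with DMSO, 446 ± 49.2 with abemaciclib, 245 ± 9.62 with fulvestrant and 344 ± 6.05 in the combination, so the rise with abemaciclib was smaller when fulvestrant was present. The call was lost in 12 of 21 alternative settings, with fulvestrant 3 and abemaciclib 1 as lone libraries (-0.33, edgeR adjusted p = 0.552) and without abemaciclib 2 (-0.33) among them. SNHG5, chosen after its values were seen, gave a difference of -1.39 ± 0.21. Its call was lost with fulvestrant 3 and abemaciclib 1 as the lone libraries of their groups. SNHG5 had 194, 194 and 111 CPM with fulvestrant and 156, 134 and 147 in the combination. The values were 115, 107 and 131 CPM with DMSO and 193, 344 and 268 with abemaciclib. Fulvestrant 3 thus lay in the DMSO range, and abemaciclib 1 was nearest to the combination.

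The same 2 treatments were compared in MDA-MB-231 cells, where 4082 of 11314 genes were called (36.1%), 1990 higher (17.6%) and 2092 lower (18.5%). The number of genes was therefore close to that in MDA-MB-453. Of 1580 genes higher in MDA-MB-453 and tested in both lines, 542 (34.3%) were higher in MDA-MB-231 and 117 were lower. Of 2011 lower genes, 967 (48.1%) were lower and 173 higher. The difference between the lines was called for 2314 of 12750 genes (18.1%), 869 higher (6.82%) and 1445 lower (11.3%) in MDA-MB-453 relative to MDA-MB-231. Higher genes were 37.6% of these calls, and 27.1% when the mitochondrial genes were left out of the scaling, which moved the median difference of all genes from -0.046 to -0.145.

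Cell cycle genes were lower in both lines, and further so in MDA-MB-453. MKI67 had 540, 377 and 399 CPM with fulvestrant and 181, 217 and 191 CPM in the combination in MDA-MB-231, a change of -1.16 ± 0.11, and the difference between lines was -6.68 ± 0.29. For MCM2 the difference was -2.61 ± 0.18, for TK1 -3.04 ± 0.23, for PLK1 -4.60 ± 0.28 and for LMNB1 -0.77 ± 0.19, all called. In MDA-MB-231 the median of the mitotic kinase list was -1.05, and 33 of 43 genes differed between the lines, all lower in MDA-MB-453. Of 53 origin and fork genes 29 differed in the same direction. CCND1 rose in both lines, but by less in MDA-MB-453, with a difference of -0.42 ± 0.11. The differences for RB1 (0.20 ± 0.22) and ERBB2 (-0.08 ± 0.19) were not called. PIP had 0 counts in both MDA-MB-231 groups, so that its difference is not read. SCGB2A2 had 2 counts in each, and its difference of 4.06 ± 1.78, which rests on them, was not called (edgeR adjusted p = 0.11). NEAT1 had 41.3 ± 10.3 and 40.0 ± 11.9 CPM in MDA-MB-231, and its difference of 3.58 ± 0.29 was called.

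Some lists moved differently between the lines. Interferon genes were higher in 17 and lower in 2 of 33 tested in MDA-MB-231 (median 0.65), and 11 of 35 were called lower in MDA-MB-453 relative to it and 1 higher. MHC class I genes were higher in 9 and lower in 1 of 14 in MDA-MB-231. Of 15, 7 were called lower in MDA-MB-453 relative to MDA-MB-231 and 1 higher. Only 18 interferon genes and 12 MHC class I genes passed the filter in MDA-MB-453, where 11 of 46 interferon genes had 0 counts in the compared libraries. For genes that did not pass there, the difference between lines rests on low counts and its size is not read. Cytosolic ribosomal proteins were lower in only 13 of 77 in MDA-MB-231. Of 77, 27 were called lower in MDA-MB-453 relative to MDA-MB-231 and 2 higher. Lysosomal genes were higher in 31 of 50 there, a number like that in MDA-MB-453, and 4 of 54 differed in one direction and 10 in the other. The largest differences by the rule rested on groups at or near 0 counts. DIAPH3 had 0 counts in the MDA-MB-453 combination but 82.8 ± 22.5 and 65.6 ± 7.02 CPM in the MDA-MB-231 groups, and CDC45 had 301 and 112 counts in MDA-MB-231. IL11 had 0 and 17 counts in MDA-MB-453 while it fell from 54.3 ± 2.43 to 2.43 ± 1.53 CPM in MDA-MB-231.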

How the data were processed

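The 24 libraries of 2 lines were made with a QuantSeq forward kit, whose reads come from near the 3′ end of each transcript. The deposited values are raw counts per gene. The authors used BBDuk for trimming, STAR for alignment (hg38) and featureCounts with GENCODE for counting, per the labels. Strand, multiple alignments, duplicates and molecular identifiers are not given in the sources used here, so counting intervals and floors cover counting error only. Of the table's lines, 1 names no gene and holds 0 counts. Positions and exon overlaps come from GENCODE on GRCh38 and promoters from RefSeq on GRCh38.p14.

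Counts were filtered with filterByExpr, scaled by TMM and fitted with the edgeR 4.0.16 quasi-likelihood model in R 4.3.3 (12 libraries within a line, 24 between lines, at a biological coefficient of variation of 12.6% in MDA-MB-453). Calls needed an adjusted p (Benjamini-Hochberg, every tested gene) below 0.05. The SE of a log2 change is its size over the root of F. Differences are coded as the effect with minus without fulvestrant, and as MDA-MB-453 minus MDA-MB-231. The chi-square between libraries was computed over genes with at least 20 counts. All tests are 2-sided. The edgeR tests of the combination against fulvestrant and of abemaciclib against DMSO in MDA-MB-453 were run on simulated counts. The other tests were not. Alternatives were DESeq2 1.42.0, other scalings and filters, a replicate block and left-out libraries, of which 2 combined left-out settings were chosen after the data had been seen.

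The genes and lists were chosen with earlier results of these data known, and list counts are descriptions beside the share of all genes called. Named genes were a fixed set of 45. The 10 largest called rises and falls with at least 20 CPM in the higher group and no overlap were added, with the 3 largest differences in each direction between conditions and between lines, and in each list up to 4 further members and any that moved against the rest. CENPM, SMC1A, SMC2 and SMC3 and a few further list members were named beyond this rule. A few genes that the rule takes are not reported here.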

Additional observations from a re-analysis of the deposited data

Results flagged for a closer look

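A difference between the abemaciclib effect with and without fulvestrant was called in MDA-MB-453 for 421 of 11080 genes (3.8%, edgeR quasi-likelihood test). The 7 given here are ERBB2, from a fixed set of 10, and the 6 largest by the rule. Those 6 were chosen among called genes, so that their calls are no separate result. Other named genes were called as well, among them CENPF (-1.10), PNPLA7 (1.46) and CYP4F8 (1.44). With fulvestrant 3 and abemaciclib 1 as the lone libraries of their groups, CYP4F8 (1.45) kept its call and CENPF and PNPLA7 did not. On the log2 scale the difference was 2.58 for NEAT1, 1.73 for GABPB1-AS1 and 1.72 for SNHG1, and it was -0.42 for ERBB2. The values of -5.26 for CDC45, -4.70 for EXO1 and -3.39 for RIBC2 rest on 0, 0 and 2 counts in the combination and 12, 8 and 14 counts with abemaciclib alone, and their size cannot be read. In the same setting NEAT1 (2.85) and GABPB1-AS1 (1.98) kept their calls, and ERBB2, SNHG1, CDC45, EXO1 and RIBC2 did not.

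A difference between MDA-MB-453 and MDA-MB-231 in the same comparison was called for 2314 of 12750 genes (18.1%). The 12 given here come from the same set of 10 and from the 6 largest between lines. Those 6 were chosen among called genes, so that their calls are no separate result. Many other named genes were called too, among them TOP2A (-6.52), EXO1 (-8.22), NEAT1 (3.58) and SNHG1 (1.84). The difference was -6.68 for MKI67, -4.60 for PLK1, -3.04 for TK1, -2.61 for MCM2, -0.77 for LMNB1 and -0.42 for CCND1. The value of -10.03 for RIBC2 rests on 0 and 4 counts in MDA-MB-231, all 4 in 1 library, without which the difference was not called. Those of -8.88 for DIAPH3 and -8.31 for CDC45 rest on 0 counts in the MDA-MB-453 combination. Those of 10.04 for IL11 and 5.38 for CMTM7 rest on 0 counts in MDA-MB-453 with fulvestrant, against 17 and 14 counts in the combination. That of 6.83 for GPRC5B rests on 5 counts in MDA-MB-231, all in fulvestrant replicate 3, without which it was not called (2.99).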

How the results depend on the processing

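For the combination against fulvestrant, between 3418 and 3898 genes were called when 1 library was left out, 3951 with DESeq2, 3981 with the replicate block, 3085 with fulvestrant 1 and 2 and abemaciclib 2 and 3 left out and 4112 without fulvestrant 3 and abemaciclib 1. Of the 3085, 2671 were among the 4052 in the same direction. A minimum change of 2-fold left 1444 calls here, 1353 for abemaciclib against DMSO, 103 for the difference with minus without fulvestrant, 1305 in MDA-MB-231 and 1301 between lines. The difference with minus without fulvestrant ranged from 191 to 873 calls when 1 library was left out, and was 22 or 1331 in the 2 combined settings above, at 853 and 2648 genes with an unadjusted p below 0.05. It was 494 with DESeq2 and 507 with no filter. Over all genes tested, the deviations of same-numbered fulvestrant and combination libraries correlated at -0.00937, 0.0174 and -0.00625. These values include genes of low counts, where counting error is large, so that they cannot exclude a pairing by replicate number. With the replicate number as a block, 3882 genes were called for abemaciclib against DMSO, 358 for the difference, 3940 in MDA-MB-231 and 2204 between lines.

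Values near 0 changed sign. CDK6 was -0.014 with no filter, -0.24 with fulvestrant 3 as the lone fulvestrant library and between -0.27 and 0.19 when 1 library was left out, and KDM5A was 0.17 with fulvestrant 3 alone. The difference with minus without fulvestrant became 0.14 for TK1 without fulvestrant 3 and abemaciclib 1, and with these as lone libraries -0.089 for RB1, 0.061 for SCGB2A2 and -0.12 for PIP, which was -0.020 with no filter. When 1 library was left out, it ranged from -0.36 to 0.13 for TK1, from -0.060 to 0.084 for PIP and from -0.63 to 0.32 for SCGB2A2, and the difference between lines for ERBB2 from -0.29 to 0.058. The list medians became 0.027 for receptors and luminal factors (fulvestrant 3 alone), 0.035 for classical oestrogen targets (stricter filter) and 0.015 for MHC class I presentation (only the groups compared). In each case the cause was not tested. With at least 2873558 counts in each combination library, a gene at 0 counts in a group could have had up to 0.291 CPM, so depth limits the size of the largest falls.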
